A study of Homo sapiens with 29 samples.

Results

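In a set of 166696 open chromatin regions from 22Rv1 prostate cancer cells, 1654 regions (0.992%) held an ATAC-seq peak with and without doxycycline (Dox), kept it under the stereoprobe WX-02-23 in a line given the FOXA1 mutant C258A, and had no peak under WX-02-23 in the matching line given wild-type FOXA1. They made up 3.77% of the 43900 regions with a peak in the same 8 libraries of the first kind. These 1654 regions are called the C258A-retained regions here. They were chosen by presence of a peak in 10 engineered libraries: both FOXA1-WT DMSO libraries with Dox, both FOXA1-C258A DMSO libraries with Dox, both FOXA1-WT libraries without Dox and both FOXA1-C258A WX-02-23 libraries had to hold the region, and both FOXA1-WT WX-02-23 libraries had to lack it. Presence in these 10 libraries is therefore a description and not a finding. The 15 parental and the 4 engineered pladienolide B libraries were not used in the choice.

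FOXA1 is a pioneer transcription factor, a protein that binds its forkhead motif in closed chromatin and helps to open it for other factors, among them the androgen receptor in prostate cells. ATAC-seq reads this openness through a transposase that cuts accessible DNA and tags it for sequencing. WX-02-23 is a stereoprobe that reacts with the cysteine C258 of FOXA1, which the C258A mutant lacks. Whether it acts on other proteins in these cells was not analysed here. Pladienolide B (PladB) binds the splicing factor SF3B1, and the Y36C form of PHF5A, its partner in the spliceosome, blunts the action of such ligands on splicing.

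The 29 libraries came from 12 groups, all treated for 3 h. Parental 22Rv1 cells gave 3 libraries each for DMSO at 0.1%, for WX-02-23 and its stereoisomer WX-02-43, both at 20 µM, and for PladB at 10 nM and 100 nM. Engineered 22Rv1 cells, which stably expressed Y36C-PHF5A in every group, carried a Dox-inducible FOXA1-WT or FOXA1-C258A gene and gave 2 libraries per group. Both engineered lines received Dox with DMSO, WX-02-23 (20 µM) or PladB (100 nM), and the FOXA1-WT line also received DMSO without Dox. Both engineered lines also carry the cells' own FOXA1, and a C258A group without Dox was not analysed here. Whether replicates were separate cultures is not stated, so the spread between them may be technical.

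Each library was given as 1 peak list with no read total. Parental lists ranged from 82538 to 98193 peaks, engineered ones from 62832 to 92658. Relative depth, inferred as the background in reads per base behind the fold and p-values, ran from 0.546 to 1.50. The lowest called summit in a list held an inferred 5 to 8 reads. A region without a peak may be open below that limit. The FOXA1-WT WX-02-23 lists were short, with 67815 and 62832 peaks at backgrounds of 0.903 and 1.26. The lists without Dox were about as short, with 69814 and 67195 peaks at 0.809 and 0.723. They hold every chosen region because the rule demands it, so this says nothing on the part of list length. The C258A WX-02-23 lists held 76645 and 92658 peaks at 0.648 and 0.917. The parental and engineered lists carry peak names from 2 different processing folders, so cell line and batch cannot be told apart, and each treatment is compared only with libraries of its own kind of cell.

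The choice itself was uneven between the lines. With the 2 WX-02-23 groups exchanged, 62 regions were retained in the FOXA1-WT line and lacked a peak in both C258A libraries, and 355 regions held by the 6 untreated engineered libraries lacked a peak under WX-02-23 in both lines. With every list shortened to its 62832 strongest peaks, the length of the shortest list, 432 regions met the rule and 193 met the exchanged rule. Across all regions with a peak in both DMSO libraries of a line, 16.5% lacked a peak in both WX-02-23 libraries of the FOXA1-WT line and 3.85% in both of the C258A line; since the rule used these contrasts, nothing is read from them. The 38567 regions held by the same 8 libraries and by both FOXA1-WT WX-02-23 libraries are called kept regions and serve for comparison.

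The count of 1654 rested on both FOXA1-WT WX-02-23 libraries. It was 4066 without the first and 2921 without the second, and 62 became 856 without C258A WX-02-23 replicate 2. Just outside the rule stood 3679 regions held by the 8 libraries and by exactly 1 FOXA1-WT WX-02-23 library, 2412 of them by replicate 1 and 1267 by replicate 2. Another 1938 regions lacked a peak in both FOXA1-WT WX-02-23 libraries and in 1 of the 8 others, which was C258A WX-02-23 replicate 1, the shallowest of the 10 libraries of the rule, in 807 of them. When the rule was applied to replicate 1 of each group alone, it took 4316 regions, of which replicate 2 held 90.9% in the C258A WX-02-23 group and 37.6% in the FOXA1-WT WX-02-23 group. When applied to replicate 2 alone it took 7309 regions, of which replicate 1 held 69.2% and 50.2%. In both readings the C258A library held the larger share, as it did among the 2155 regions that the exchanged rule took from replicate 1 (85.3% and 51.9%). Among the 434 that the exchanged rule took from replicate 2, the FOXA1-WT library held the larger share (46.8% in the C258A library and 55.3% in the FOXA1-WT library). The C258A WX-02-23 list was the longer one in replicate 1 (76645 against 67815 peaks) and in replicate 2 (92658 against 62832). The part of list length in these shares was not tested.

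The C258A-retained regions were weak peaks. Strength was taken as the percentile of a region's p-value within each peak list, averaged over the 8 lists that hold all of them. Its median was 34.8, with the middle 50% of the regions between 28.0 and 43.2 and extremes of 9.35 and 81.6, against a median of 73.1 in the kept regions. With the 43900 regions ordered by strength into 5 bins of 8780, C258A-retained regions were 1368 of the weakest bin (15.6%), 252 of bin 2 (2.87%), 32 of bin 3 (0.364%), 2 of bin 4 (0.0228%) and 0 of bin 5, the strongest. Their median summit in the untreated engineered lists held an inferred 14 or 15 reads, and 11 and 15 in the C258A WX-02-23 lists. The kept regions held 32 to 35 in the untreated lists. The regions were also narrow, with a median merged width of 488 bp against 743 bp.

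**Figure D1:**
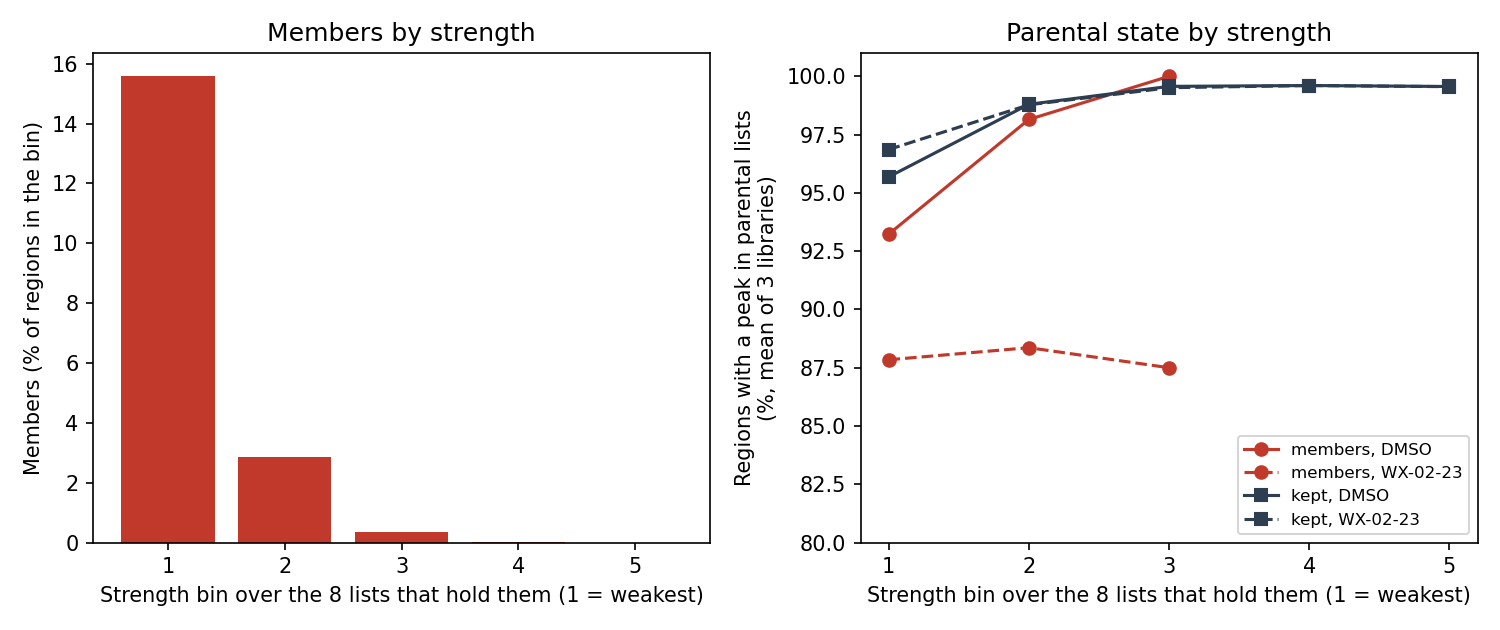
Left, C258A-retained regions ("members") as a percent of all regions in each of the 5 strength bins (1 weakest, 5 strongest). Right, percent of C258A-retained and kept regions with a peak in parental lists (mean of 3 libraries; bins with under 20 regions are not drawn): the line for WX-02-23 in C258A-retained regions lies below 89% in each bin drawn, and the other 3 lines lie above 93%.

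The word retained describes presence, not equal height. Among the 43900 regions held by all 8 libraries, the median rank of the C258A-retained regions, in percentiles with 100 the strongest, was 12.9 and 12.3 in the 2 C258A DMSO lists and 10.1 and 9.13 in the 2 C258A WX-02-23 lists. It was 10.2 in both FOXA1-WT DMSO lists with Dox and 11.6 and 11.8 in the 2 lists without Dox. The 2 C258A groups did not overlap, and the WX-02-23 lists were the lower ones. The kept regions stood at 55.9 to 56.0 in all 8 lists. They were 38567 of the 43900 ranked regions, so their median could hardly move and serves for no contrast. The 8 lists chose the regions, so these values carry no test.

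PladB at 100 nM left most of these regions with a peak in both engineered lines. In the FOXA1-WT line 79.0% and 95.2% of the 1654 regions held a peak in the 2 PladB libraries, and in the C258A line 84.9% and 88.3% did. The 2 lines overlapped, with a mean difference of 0.514 percentage points (SE 8.31, n = 2 per line). The lowest share came from the library with the fewest peaks of the 4 (71121), and the part of list length in it was not tested. All 4 PladB libraries held 1034 of the regions (62.5%), 3 held 425, 2 held 144, 1 held 46 and none held 5, whereas 96.6% of the kept regions had a peak in all 4.

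A peak in neither PladB library was rare. It was missing from both in 36 of the 1654 regions (2.18%) in the FOXA1-WT line, against 4.45% of all regions held by both DMSO libraries of that line, and in 69 (4.17%) in the C258A line, against 6.6%. Both shares lay below that background, which takes in regions not held by the 8 libraries of the rule. They lay above the kept regions, of which 22 (0.0570%) lacked both peaks in the FOXA1-WT line and 109 (0.283%) in the C258A line. The 5 regions without a peak in any of the 4 PladB libraries, named after their values were seen, were chr5:142950452-142951201, chr7:102523565-102523913, chr7:119122323-119122599, chr13:30082328-30082876 and chrX:18395852-18396400 (build hg19, as all positions here). The strength of these 5 was 14.2 to 28.6, under the median of the set. Ranked among the 41016 regions that all 12 of these libraries held, 1034 C258A-retained regions had a median rank of 10.0 and 9.73 in the FOXA1-WT PladB lists, against 9.87 and 10.6 with DMSO. In the C258A line the ranks were 14.4 and 13.8 with PladB and 13.5 and 13.4 with DMSO.

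In parental cells, nearly all of these regions were open under DMSO and fewer held a peak under WX-02-23. Parental cells have only their own FOXA1, and presence in their lists had no part in the choice. They differ from the engineered cells by Y36C-PHF5A as well, and its part was not tested. The share with a peak was 93.2%, 95.5% and 93.7% in the 3 DMSO libraries and 89.5%, 85.7% and 88.6% in the 3 WX-02-23 libraries. All 3 WX-02-23 values lay below all 3 DMSO values, with a mean difference of -6.19 percentage points (SE 1.37). The kept regions had 98.9% in DMSO and 99.1% in WX-02-23 on average, a difference of 0.124 points. Regions that lacked a peak under WX-02-23 in both engineered lines went from 90.9% to 72.2%, a difference of -18.7 points, and the 62 regions of the exchanged rule stood at 96.8% in both groups. The difference of -6.19 became -3.03 when FOXA1-WT WX-02-23 replicate 1 was left out of the choice, -3.82 without replicate 2 of that group and -21.9 with lists cut to equal length.

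The stereoisomer WX-02-43 gave shares of 94.7%, 96.0% and 89.6%. These overlapped the DMSO values, with a mean difference of -0.665 points and differences from -5.93 to 2.84 over the 9 pairs of libraries. WX-02-43 replicate 3 had the highest background of all 29 libraries, 1.50 reads per base, and also the lowest share of its group. At the same dose and time, WX-02-23 differed from WX-02-43 by -5.52 points on average, and its pairwise differences ran from -10.3 to -0.060. This difference was -20.8 with lists of equal length, -2.59 without FOXA1-WT WX-02-23 replicate 1 in the choice and -3.30 without replicate 2.

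PladB at 10 nM gave 95.0%, 91.7% and 90.7%, which overlapped DMSO. PladB at 100 nM gave 87.6%, 89.7% and 84.8%, all below DMSO, with a mean difference of -6.75 points (SE 1.61). The PladB 100 nM libraries were the shallowest parental ones (0.662 to 0.734 reads per base, against at least 0.881 in DMSO and 0.923 in WX-02-23) and had the 2 shortest parental lists. The part of depth in that difference was not tested. The WX-02-23 and PladB 100 nM shares overlapped.

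**Figure D2:**
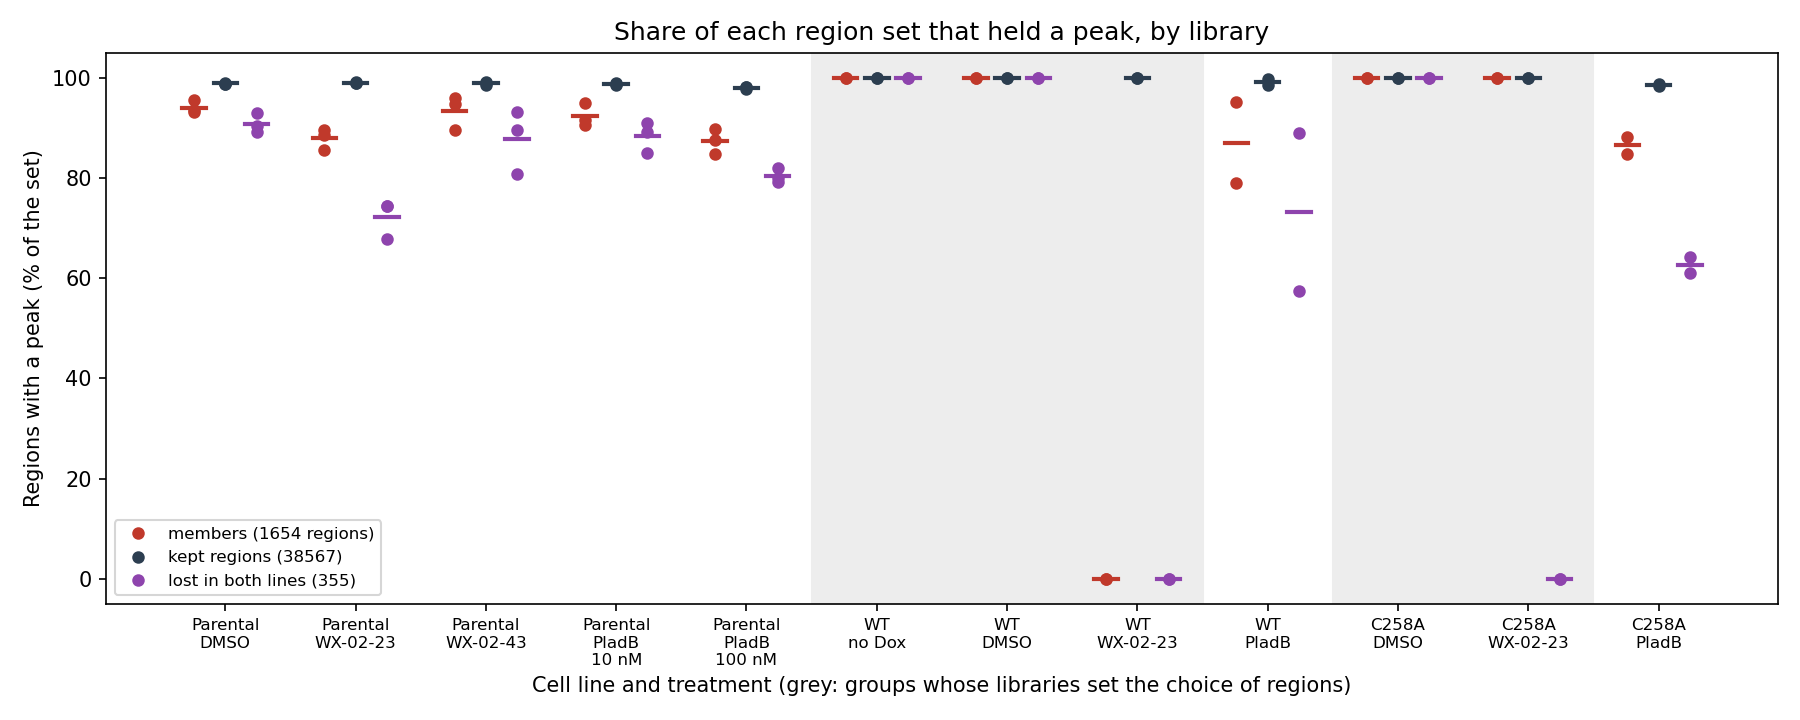
Percent of each region set with a peak, 1 point per library and a bar at the group mean, for the C258A-retained regions ("members"), the kept regions and those lacking a peak under WX-02-23 in both engineered lines. Grey marks the groups whose values the choice of regions fixed at 0 or 100%; outside them the C258A-retained regions are lowest in FOXA1-WT PladB (79.0%) and, among parental libraries, in PladB at 100 nM and WX-02-23.

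Complete loss in parental cells was limited to a small number of regions. Of the 1465 C258A-retained regions with a peak in 3 of 3 DMSO libraries, 45 (3.07%) had a peak in none of the 3 WX-02-23 libraries, against 2.02% of all 70778 regions with 3 of 3 DMSO peaks. The share was thus near the background of all regions, which takes in regions of all strengths. It lay above that of the regions held by the 8 libraries, 84 of 42792 (0.196%), which include these 45. Of the kept regions, 15 of 37916 (0.0396%) were lost in this way, and of those lacking a peak in both engineered lines, 31 of 290 (10.7%). The count of 45 became 69 without parental WX-02-23 replicate 1 and 71 without C258A WX-02-23 replicate 1, and 28 when a peak had to cover 50% of the region. A further 58 regions with 3 of 3 DMSO peaks had 1 WX-02-23 peak, 103 had 2, and 1259 (76.1% of the 1654) had a peak in all 6 libraries.

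The other compounds left fewer regions without any peak. With the same call against DMSO, WX-02-43 lost 2 of 1465 (0.137%, background 0.609%) and PladB at 10 nM lost 3 (0.205%, background 0.918%). PladB at 100 nM lost 25 (1.71%, background 2.69%). These shares lay below the backgrounds of all regions, but above those of the regions held by the 8 libraries. The latter were 0.0140%, 0.0491% and 0.266% in the same order. These comparisons share the 3 DMSO libraries. The 2 regions lost after WX-02-43 were chr4:155759289-155760191 and chrX:39592154-39592467, and the 3 lost after PladB at 10 nM were chr8:141841232-141841539, chr11:61354230-61354624 and chr16:67346605-67347038, all named after their values were seen. Between the stereoisomers, 41 of 1433 regions with 3 of 3 WX-02-43 peaks had none under WX-02-23 (2.86%, background 1.85%). Among the regions held by the 8 libraries this share was 0.175%, and that of the reverse call 0.0328%. The reverse held for 2 of 1325 (0.151%, background 2.64%), which were chr3:183757822-183758110 and the region on chromosome X. A gain under WX-02-23, from 0 of 3 DMSO to 3 of 3 WX-02-23 libraries, was seen in 2 of 30 regions (background 3.57%), chr4:102003024-102003559 and chr8:132049269-132049491.

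The 45 regions lost in parental WX-02-23 libraries were mostly held under the other treatments. All 3 WX-02-43 libraries held 35 of them, all 3 PladB 10 nM libraries 34, all 3 PladB 100 nM libraries 23, and all 4 engineered PladB libraries 35. PladB at 100 nM also left 10 of the 45 without any peak, against 6 of the 1259 regions held by all DMSO and WX-02-23 libraries. The 45 were the weaker ones in parental DMSO lists, with a median percentile of 40.8 against 53.4 in the 1259, while their strength in the engineered lists was 40.3 against 35.6. Of the 1150 C258A-retained regions with a peak in all 12 other parental libraries, 20 (1.74%) had none in the 3 WX-02-23 libraries. The background was 0.299% of all 55818 regions held by those 12 libraries and 0.0609% of the 41019 also held by the 8 engineered ones, and for the kept regions the share was 2 of 36936 (0.00541%).

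The rank of the regions that kept a peak set the WX-02-23 libraries apart from the 12 other parental libraries. All 15 parental libraries shared 54404 regions, so their ranks can be set side by side at equal list length. Of the C258A-retained regions, 1061 (64.1%) were among them. Their median rank, in percentiles by p-value, was 29.5, 29.1 and 29.9 in the DMSO libraries and 19.9, 19.3 and 20.1 in the WX-02-23 libraries. WX-02-43 gave 29.1, 27.6 and 27.3, PladB at 10 nM gave 29.6, 30.4 and 28.4, and PladB at 100 nM gave 27.3, 27.9 and 29.1. All 3 WX-02-23 values lay below all 12 others, with a mean difference of -9.74 percentiles against DMSO (SE 0.337) and -8.23 against WX-02-43 (SE 0.601). PladB at 100 nM differed from DMSO by -1.40 percentiles (SE 0.579), and WX-02-43 by -1.51 (SE 0.584). Both groups also lay below all 3 DMSO values, by a narrow margin. Their highest values were 29.106 for PladB and 29.067 for WX-02-43, against a lowest DMSO value of 29.11. The kept regions stood at 64.9 in DMSO and 65.1 in WX-02-23. They were 36860 of the 54404 ranked regions, so their median could hardly move and serves for no contrast. The 173 shared regions that lacked a peak in both engineered lines moved from 35.9 to 15.8. The 39 shared regions of the exchanged rule also ranked lower under WX-02-23, at 29.6 against 35.2 in DMSO, a difference of -5.60 (SE 0.803) with no overlap. Their differences from DMSO under PladB were -5.73 at 10 nM, with no overlap, and -5.78 at 100 nM, with overlap, and their WX-02-23 values overlapped those of the 12 other libraries. Without FOXA1-WT WX-02-23 replicate 1 in the choice of regions, the differences were -5.08 against DMSO and -3.97 against WX-02-43.

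Kept regions of the same strength did not share the lower rank. They were chosen for a peak in both FOXA1-WT WX-02-23 libraries and the C258A-retained regions for none. The 3679 regions held by the 8 libraries and by exactly 1 of those 2 are in neither set. The part of this choice in the parental ranks was not tested. Within the strength range that holds the middle 50% of the C258A-retained regions, 523 of them and 2350 kept regions were shared by all parental libraries. There the C258A-retained regions ranked at 27.3 ± 0.364 in DMSO, 25.7 ± 0.572 in WX-02-43 and 20.1 ± 0.793 in WX-02-23 (SD, n = 3 each). The kept regions of the same strength ranked at 26.3 ± 0.743, 26.3 ± 0.562 and 29.6 ± 0.423 in the same order. The 2 sets thus lay close together in DMSO, and under WX-02-23 the C258A-retained regions ranked lower and the kept regions higher than in DMSO, with no overlap between the groups in either set. In the same range the parental share with a peak was 94.4% in DMSO and 88.9% in WX-02-23 for 826 C258A-retained regions, and 95.4% and 96.7% for 3006 kept regions. Of those with 3 of 3 DMSO peaks, 23 of 736 (3.13%) and 4 of 2751 (0.145%) had none under WX-02-23.

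**Figure D3:**
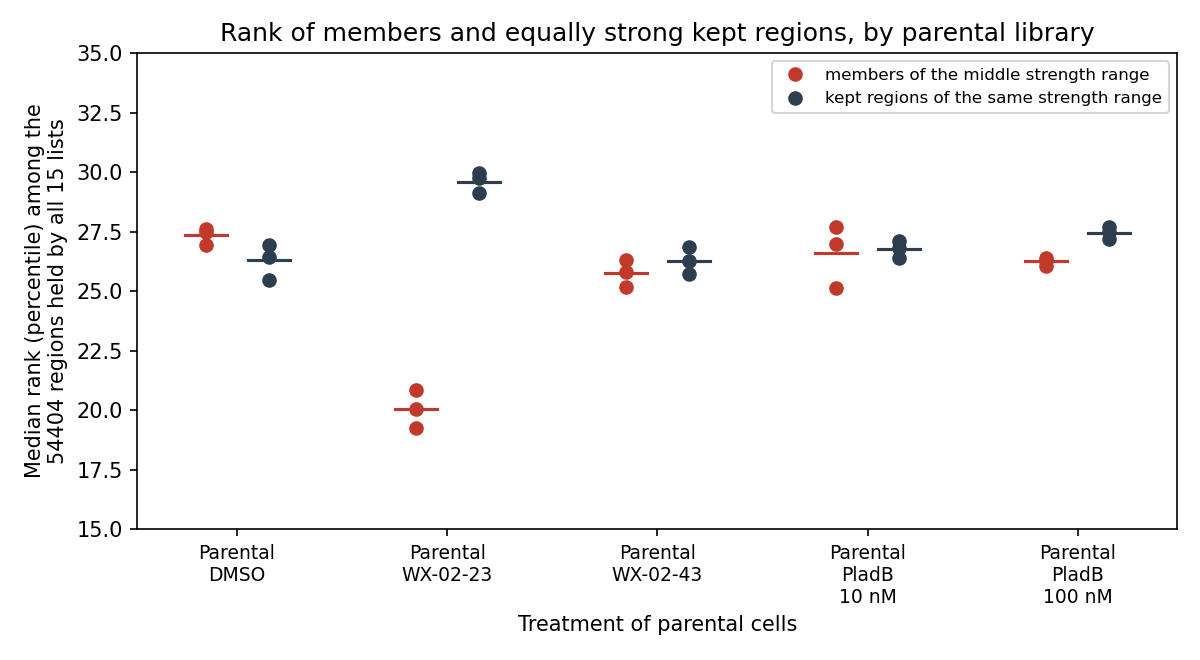
Median rank by p-value in each parental library (1 point per library, bar at the mean of 3), among the 54404 regions that all 15 parental lists hold, for 523 C258A-retained regions ("members") and 2350 kept regions of the same strength range. The rank axis runs from 15 to 35; under WX-02-23 the C258A-retained regions lie at 19.3 to 20.9 and the kept regions at 29.1 to 29.9, while in the other 4 groups both lie between 25 and 28.

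Tested region by region, a part of the shared C258A-retained regions ranked lower under WX-02-23. With limma on normal scores of the ranks over all 54404 shared regions, and an adjusted p of 0.05, 184 of 1061 (17.3%) fell against DMSO, where the background of all shared regions was 3.56%, and 3 rose, where it was 2.05%. Of the kept regions, 1034 of 36860 (2.81%) fell and 685 rose. In the common strength range 57 of 523 C258A-retained regions (10.9%) and 23 of 2350 kept regions (0.979%) fell. Against WX-02-43, 161 (15.2%, background 2.92%) were lower in WX-02-23 and 1 was higher (background 1.41%). With the ranks taken by fold, the counts were 109 against DMSO and 94 against WX-02-43. Of all 54404 shared regions, 788 and 663 were lower in these 2 fits.

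No C258A-retained region was called for WX-02-43 against DMSO by this limma test (0 of 1061 lower, background 0.0276%, and 0 higher, background 0%), with 54 lower (5.09%, background 3.51%) and 27 higher (2.54%, background 3.44%) at an unadjusted p under 0.05. PladB at 10 nM also gave 0 in both directions (backgrounds 0% lower and 0.0165% higher), with 35 lower (3.30%, background 4.26%) and 43 higher (4.05%, background 4.28%) unadjusted. For PladB at 100 nM, 4 fell (background 0.515%) and 1 rose (background 0.23%), with 82 lower (7.73%, background 6.61%) and 52 higher (4.90%, background 5.75%) unadjusted. Both called shares lay below their backgrounds, and the unadjusted ones were near theirs. The 4 were chr1:158991680-158992494, chr6:117223789-117224263, chr15:39187358-39187804 and chr21:21811221-21811918, and the 1 was chr8:28114861-28115445. Between 1 and 4 fell when single DMSO or PladB 100 nM libraries were left out, with 1 without DMSO replicate 1 and 2 without DMSO replicate 3 or PladB 100 nM replicate 1. Of all 54404 shared regions, 99 to 228 fell in these fits.

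A count without a model also set WX-02-23 apart, and the other treatments lay near their backgrounds. The rank was lower in all 3 WX-02-23 libraries than in all 3 DMSO libraries in 308 of 1061 regions (29.03%, background 11.2%) and higher in 43 (4.05%, background 11.3%). For WX-02-43 against DMSO, 85 were lower (8.01%, background 6.13%) and 45 higher (background 6.28%). For PladB at 10 nM against DMSO, 69 were lower (6.50%, background 6.65%) and 62 higher (background 6.73%). For PladB at 100 nM against DMSO, 104 were lower (9.80%, background 8.09%) and 64 higher (background 8.03%). For WX-02-23 against WX-02-43, 274 were lower (25.8%, background 10.3%) and 55 higher (background 10.2%).

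**Figure D4:**
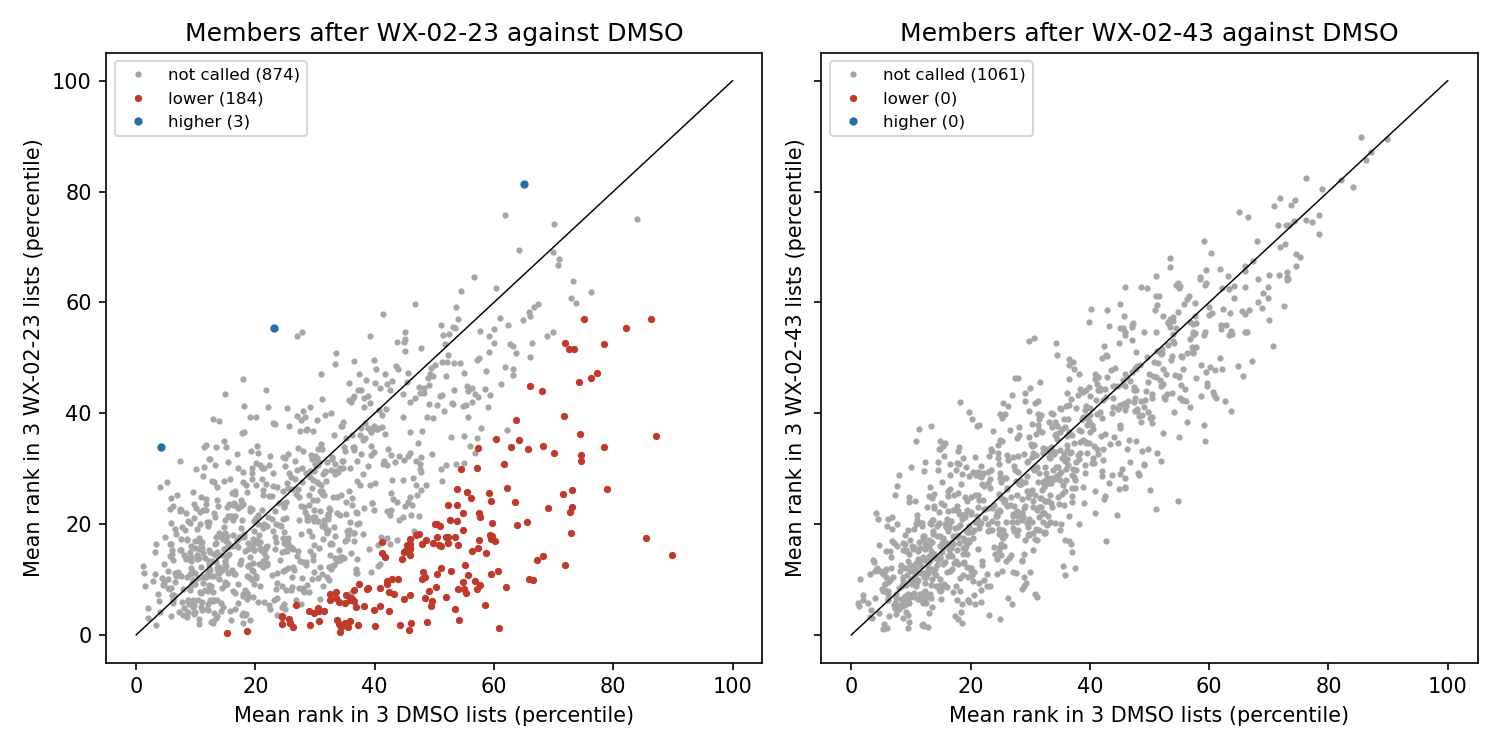
Mean rank in percentiles of each of the 1061 shared C258A-retained regions in the 3 DMSO lists (x axis) and in the 3 lists of WX-02-23 (left) or WX-02-43 (right), with the line of equal rank. Red and blue points are regions that limma called lower or higher at an adjusted p of 0.05: 184 and 3 for WX-02-23, none for WX-02-43.

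The 184 regions that fell were among the stronger ones in DMSO. Their mean DMSO rank had a median of 51.6 (15.2 to 89.8), and under WX-02-23 it was 13.9 (0.410 to 57.1), with 47.7 under WX-02-43 and 43.8 under PladB at 100 nM. The 877 others had medians of 25.05 in DMSO and 21.5 under WX-02-23. By bin of engineered strength, 83 of 840 shared C258A-retained regions fell in bin 1 (9.88%), 75 of 193 in bin 2 (38.9%), 24 of 26 in bin 3 (92.3%) and 2 of 2 in bin 4. Of the kept regions 0.965%, 2.57%, 4.16% and 3.78% fell in the same bins. The room for a fall in rank grows with the DMSO rank, and its part in these shares was not tested. The 3 regions that rose, named after their values were seen, were chr5:82726275-82726605 (mean rank 4.18 in DMSO and 33.9 under WX-02-23), chr10:3978063-3978984 (23.1 and 55.3) and chr13:102515580-102516101 (65.1 and 81.4). The 1 higher against WX-02-43 was chr10:9495923-9496456 (13.8 under WX-02-43 and 43.5 under WX-02-23).

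The 5 strongest regions, named by their strength in the engineered lists, show the patterns one by one. Which genes lie there was not analysed here. The strongest, chr10:73391142-73391843 (strength 81.6), ranked at 90.4, 85.8 and 93.2 in the DMSO libraries and at 26.3, 9.88 and 7.24 in the WX-02-23 libraries. WX-02-43 gave 89.2, 93.7 and 85.7, and PladB at 100 nM gave 85.9, 88.5 and 85.6. The WX-02-23 values lay below all others, with a score difference of -2.42 (SE 0.164, limma adjusted p = 8.57e-15) against DMSO and of -2.40 (limma adjusted p = 8.13e-15) against WX-02-43. Within its own list, the peak stood at the 90.7th and 90.5th percentile in the C258A DMSO libraries and at the 39.5th and 72.8th in the C258A WX-02-23 libraries. The C258A lists chose the regions and differ in length, so these percentiles, here and for the next 4 regions, are given without a comparison.

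The next region, chr20:9423248-9423917 (strength 77.7), ranked at 83.5, 90.3 and 87.4 in DMSO and at 43.4, 37.0 and 27.2 under WX-02-23. Its score difference was -1.51 (SE 0.131, limma adjusted p = 1.28e-11). In the C258A line its percentile in the list was 84.4 and 88.7 with DMSO and 48.1 and 45.5 with WX-02-23. The region chr5:55309145-55309756 (strength 75.4) ranked at 77.9, 76.8 and 80.5 in DMSO and at 41.9, 35.5 and 24.4 under WX-02-23, with a score difference of -1.21 (SE 0.148, limma adjusted p = 1.07e-07). Its percentile in the C258A lists was 81.1 and 77.7 with DMSO and 70.4 and 68.5 with WX-02-23. These 3 were also the strongest of the 714 regions with a peak in all 27 libraries other than FOXA1-WT WX-02-23.

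The other two of the 5 lost the peak in most parental WX-02-23 libraries. At chr4:71995376-71995808 (strength 74.2) the percentile within the list was 73.2, 70.3 and 82.1 in DMSO and 83.3, 76.3 and 64.5 in WX-02-43. WX-02-23 replicate 1 had a peak at the 8.59th percentile, and replicates 2 and 3 had none. In the C258A line the values were 84.6 and 70.8 with DMSO and 71.1 and 83.1 with WX-02-23. At chr18:34687886-34688442 (strength 73.6) the DMSO values were 72.7, 83.6 and 70.8, WX-02-23 replicate 1 was at 15.1, and replicates 2 and 3 again had no peak. The C258A values there were 83.5 and 77.7 with DMSO and 59.7 and 77.2 with WX-02-23.

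**Figure D5:**
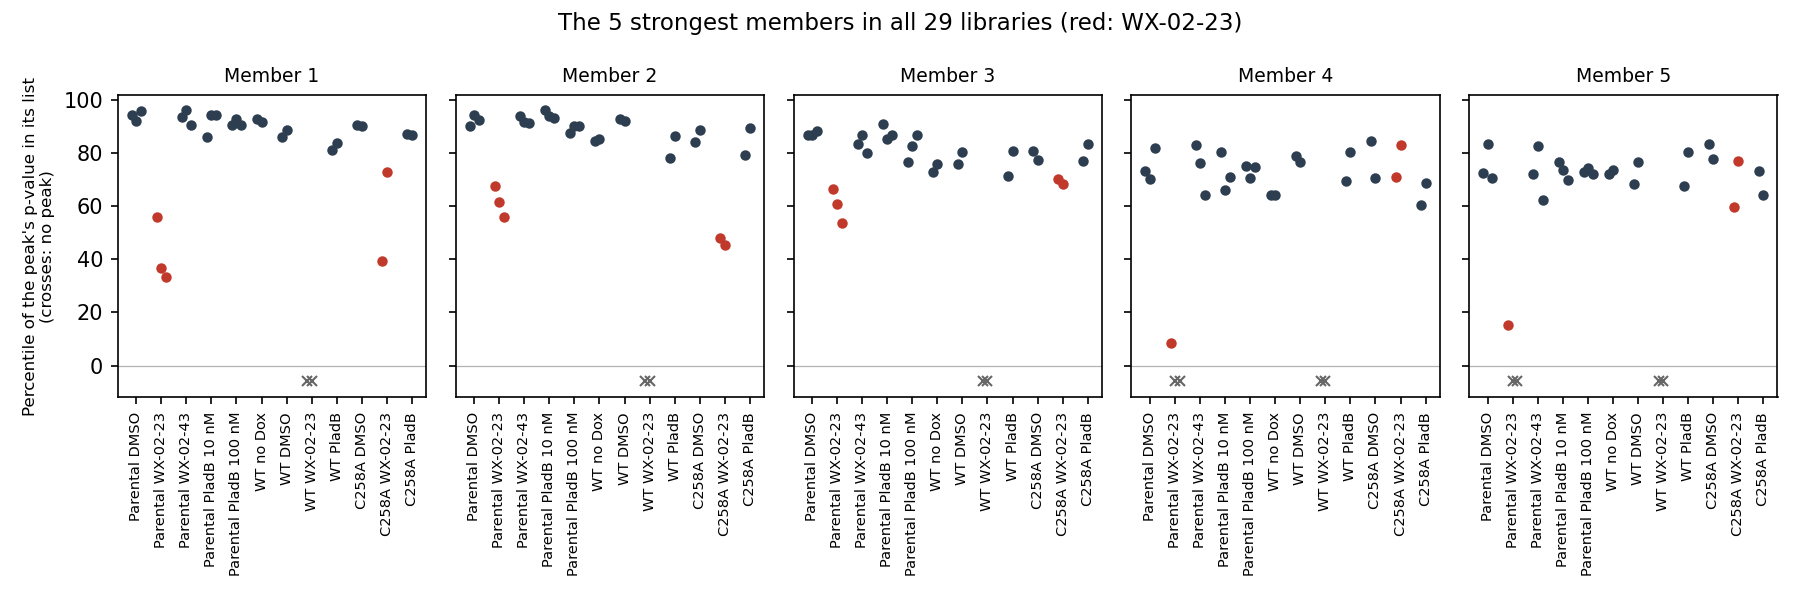
Percentile of the peak within its list, by library, for the 5 strongest C258A-retained regions (member 1 on chromosome 10, member 2 on chromosome 20, member 3 on chromosome 5, member 4 on chromosome 4, member 5 on chromosome 18). Red points are WX-02-23 libraries and crosses libraries without a peak; lists differ in length, so levels are read within a list. Parental WX-02-23 points lie below the other parental points in all 5 regions, and FOXA1-WT WX-02-23 has no peak by the choice of regions.

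The strongest of the 45 regions lost in parental cells differed in their PladB state. The region chr21:38531654-38532185 (strength 65.8) had a fold over background, as the authors' value, of 6.91, 6.49 and 6.77 in the DMSO libraries. It had no peak in the 3 WX-02-23 libraries, the 3 PladB 100 nM libraries or WX-02-43 replicate 3, while both engineered lines held it with PladB at folds of 12.6 to 14.3. The region chr3:102312617-102313116 (strength 64.0) had folds of 10.6, 11.9 and 10.3 in DMSO, 11.1, 11.6 and 8.68 in WX-02-43 and 10.5, 10.2 and 8.70 in PladB at 100 nM, and no peak in the 3 WX-02-23 libraries. Its DMSO percentiles of 65.7, 73.3 and 64.5 had the highest mean of these 5 regions. The region chr5:44589877-44590258 (strength 55.1) was near the limit of calling already in DMSO, at percentiles of 0.895, 8.77 and 16.9. The region chr1:192600869-192601279 (strength 54.4) was also without a peak in the 3 PladB 100 nM libraries, and chr3:131937591-131938290 (strength 54.3), at DMSO percentiles of 60.4, 52.2 and 48.5, was lost under WX-02-23 and held in the 12 other parental libraries.

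No parental library held a peak in 14 of the 1654 regions (0.846%), against 0.481% of all 43900 regions held by the 8 libraries and 186 of the 38567 kept regions (0.482%). The strongest were chr4:49177341-49177768, at percentiles of 47.5 to 65.0 in the 6 untreated engineered lists, and chr3:47753133-47753563, at 10.95 to 65.2. Both had a peak in all 4 engineered PladB libraries. The third, chr8:23535596-23536226, had folds of only 3.62 to 4.76 in the same 6 lists and lacked a peak in FOXA1-WT PladB replicate 1.

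The C258A-retained regions lay on all chromosomes used and few lay close to one another. Their share among the regions held by the 8 libraries ran from 1.89% on chromosome 19 to 4.76% on chromosome 5. Another such region lay within 50 kb of 139 of them (8.40%) and within 10 kb of 27 (1.63%). For the kept regions the shares with a C258A-retained region that near were close to these, at 7.91% and 1.58%. A kept region lay within 50 kb of 74.2% of them, and of 80.5% of the kept regions another kept region did. In parental cells the median distance of the summit between a WX-02-23 and a DMSO library was 30 to 34 bp over the 9 pairs, against 28 to 31 bp between DMSO libraries, and 23 to 24 bp in the kept regions.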

How the data were processed

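The 29 deposited peak lists were called by the authors with MACS2 after alignment with Bowtie2 to build hg19, per the submitters' processing notes; no source used here gives versions, options or read shifts. Each list gives, per peak, the authors' score, their fold enrichment (a ratio), p and q on a −log10 scale and the summit offset; libraries were called separately. The lowest deposited −log10 q per list was 2.00 to 2.15, a q-value of 0.01. The authors' p-value and fold ranked peaks within a list.

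Peaks on all chromosomes but the mitochondrial one were merged where they overlapped or touched, and a library held a region with at least 1 bp of overlap. For each peak, a summit read count was inferred as the whole number whose Poisson p, given the deposited fold, best matched the deposited p. The most common background among these matches, in reads per base, served as a relative depth. Read counts given here are thus inferred and not observed. Ranks among the 54404 regions held by all 15 parental libraries were turned into normal scores and fitted with limma 3.58.1 (5 groups, variance trend, R 4.3.3), with Benjamini-Hochberg adjustment over all 54404 regions. The choice of regions was tested on simulated lists, the limma step on simulated scores, and the merge was checked against bedtools 2.31.1. All else ran in Python 3.11.15 with pandas 2.3.3, numpy 2.4.6, matplotlib 3.10.9 and scipy 1.17.1.

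The regions and the comparisons were chosen with earlier results of these data known. For that reason the permutation tests planned for shares and median ranks over the chosen regions are not given; these values are descriptions with their spread. The ranks and the limma fit were added after seeing the data. Named regions were the 5 strongest, the 5 strongest with 3 of 3 parental DMSO and 0 of 3 WX-02-23 peaks, the 3 strongest held by all parental and engineered PladB libraries, and the 3 strongest held by no parental library; any other named region was chosen after its values were seen. Alternatives were a stricter q-value of 1e-05, lists of equal length, coverage of 50% of the region, summit windows of 100 bp each way, regions merged from the engineered lists alone, the common strength range, ranks by fold, other limma fits, a replicate block and omission of each library in turn. Gene positions, base composition and motifs were planned and not analysed here, as they need an hg19 genome or annotation.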

Additional observations from a re-analysis of the deposited data

How the results depend on the processing

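Of 364 values recomputed for 19 results, 322 stayed within 1.5 times the count or within the spread between libraries, 42 moved further and none of the differences that stood apart from DMSO changed sign. Lists of equal length gave 432 C258A-retained regions and 193 by the exchanged rule, with share differences of -21.9 points for WX-02-23 against DMSO, -20.8 against WX-02-43 and -19.8 against the 12 other parental libraries, and of -21.9 and -19.9 after the kept regions' share was subtracted (-6.31 and -4.29 with the lists as deposited). Summit windows gave 96 regions by the exchanged rule, and 50% coverage gave 28 regions lost in parental cells. The common strength range gave 23 lost regions and rank differences of -7.29 against DMSO, -5.69 against WX-02-43 and -6.42 against the 12 others. Ranks by fold gave -10.5 against DMSO and limma counts of lower regions of 109, 94 (against WX-02-43) and 1 (PladB at 100 nM), a count that was 2 without a variance trend and 1 with only the 2 groups fitted. Among all 54404 shared regions the counts by fold were 788, 663 and 17. Those of the last 2 PladB fits were 60 and 51.

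With each library left out in turn, the ranges were 1741 to 4066 regions by the rule and 68 to 856 by the exchanged rule, 45 to 71 lost regions, and share differences from DMSO of -6.99 to -3.03 for WX-02-23 (-7.07 to -3.12 less the kept regions), -1.94 to 1.26 for WX-02-43, -2.91 to -0.766 for PladB at 10 nM and -7.93 to -5.36 for PladB at 100 nM. WX-02-23 ranged from -7.45 to -2.59 against WX-02-43 and from -4.73 to -1.27 against the 12 others. The rank differences were -10.4 to -5.08 against DMSO, -8.55 to -3.97 against WX-02-43 and -9.34 to -4.82 against the 12 others. The limma counts were 145 to 162 against DMSO, 120 to 142 against WX-02-43 and 1 to 4 for PladB at 100 nM. Among all 54404 shared regions they were 1351 to 1553, 1104 to 1302 and 99 to 228 in the same order. The PladB difference between the engineered lines ran from -7.62 to 8.65 points and has no settled sign.

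The replicate numbers did not pair the libraries: same-numbered WX-02-23 and DMSO libraries had deviations correlated at -0.00453, -0.00933 and -0.00187 over regions. With the number as a block the share difference stayed at -6.19 and limma called 185 and 164 regions lower in WX-02-23, against 184 and 161 without it. Among all 54404 shared regions it called 1929 and 1596 lower with the block, and 1938 and 1586 without it. Depth limits absence, since the lowest called summits held an inferred 5 to 8 reads.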
